A study of Macaca mulatta with 12 samples.

Results

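The comparison described here set 3 postnatal arrays, from rhesus macaques of 1, 24 and 182 days, against 3 from animals of 353, 479 and 831 days. These 6 arrays were chosen by the ages in the labels, from a series of 12 arrays in all. The former are called the younger group and the latter the older group. All 12 animals were male, had died suddenly of causes unrelated to the study, and gave 1 array each of the superior frontal gyrus, a part of the prefrontal cortex. No treatment, genotype or strain beyond the species is labelled for any of them. Trizol-extracted total RNA was hybridised to the Affymetrix Human Gene 1.0 ST array, which carries probes for human transcripts, so signals depend on how well macaque RNA matches them. The other 6 arrays were fetal, from 72 to 30 days before birth, and served here to estimate the spread and as levels for orientation. The question was which genes went on differing between cortex of the first 182 days and cortex of later infancy and juvenile age, across all 9630 rows of the table.

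Around birth most cortical neurons are already in place, and maturation then continues through the growth and pruning of axons and synapses, the myelination of axons and the maturation of glia. Oligodendrocytes wrap axons in myelin, astrocytes take up transmitter and supply metabolites, and neurons exchange juvenile proteins of growing neurites for proteins of stable synapses. Subunits of transmitter receptors are also exchanged with age, and the extracellular matrix becomes denser around some neurons. In homogenised tissue, fewer cells of a type and less RNA per cell cannot be told apart.

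Values are on the deposited log scale, read as log2, so that a difference of 1 is 2-fold. The medians of the 6 arrays were 4.10, 4.29 and 4.22 in the younger group and 4.15, 4.38 and 4.02 in the older group, in order of age. The 831-day array thus had the lowest median and the 479-day array the highest. Across rows, pairs of arrays correlated at 0.949 to 0.965 within the younger group, at 0.953 to 0.97 within the older group and at 0.94 to 0.971 across the groups. The 182-day array correlated equally with the other younger arrays and with the older arrays, at a mean of 0.964 for both. Rows are not independent replicates. Markers of cortex were present on all 6 arrays: the neuronal genes SLC17A7 (6.51 to 7.37) and SNAP25 (7.24 to 8.45) and the astrocyte gene GFAP (7.21 to 8.19) lay above every array median. TTR, the defining transcript of choroid plexus, lay between 1.91 and 3.03, under the 20th percentile of its array on 5 of the 6. No batch, scan or extraction group is labelled. With 3 animals in each group, the number of arrays limits the precision.

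No row passed the test between the groups. With limma on all 9630 rows, 0 (0.0%) had an adjusted p under 0.05, and the smallest adjusted p was 0.0863. At an unadjusted p under 0.05 there were 773 rows (8.03%), 343 higher (3.56%) and 430 lower (4.47%) in the older group. The median difference over all rows was -0.02, and the differences ran from -2.12 to 2.03 log2 units. 32 rows were higher and 38 lower by at least 1 log2 unit. The median SD of a row was 0.23 within the younger and 0.26 within the older group. By contrast, the younger group against the fetal group, with the same fit, gave 1714 called rows (17.8%), 1114 higher (11.6%) and 600 lower (6.23%) in the younger group. That comparison sets 3 arrays against 6 in place of 3 against 3, so its standard errors are smaller (0.26 against 0.30 for CRYAB). It also shares the younger arrays with the one described here. The values of both are therefore given only side by side.

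Without a call to rest on, genes are described below by whether every older value was above, or every younger value above, the values of the opposite group, written as groups that did not overlap. This held for 1213 of 9630 rows (12.6%), 558 higher (5.79%) and 655 lower (6.8%), and for 1123 of the 8785 genes with a row (12.8%), 518 higher (5.9%) and 605 lower (6.89%) in the older group. These percentages are the background for every count of genes below. Non-overlap together with a difference of at least 1 log2 unit was found in 52 genes (0.592%), 23 higher (0.262%) and 29 lower (0.33%). Every difference below is the older minus the younger mean with the SE of the fit, and none passed the adjusted threshold in that fit. A slope with age, where named, is a separate test.

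**Figure D1:**
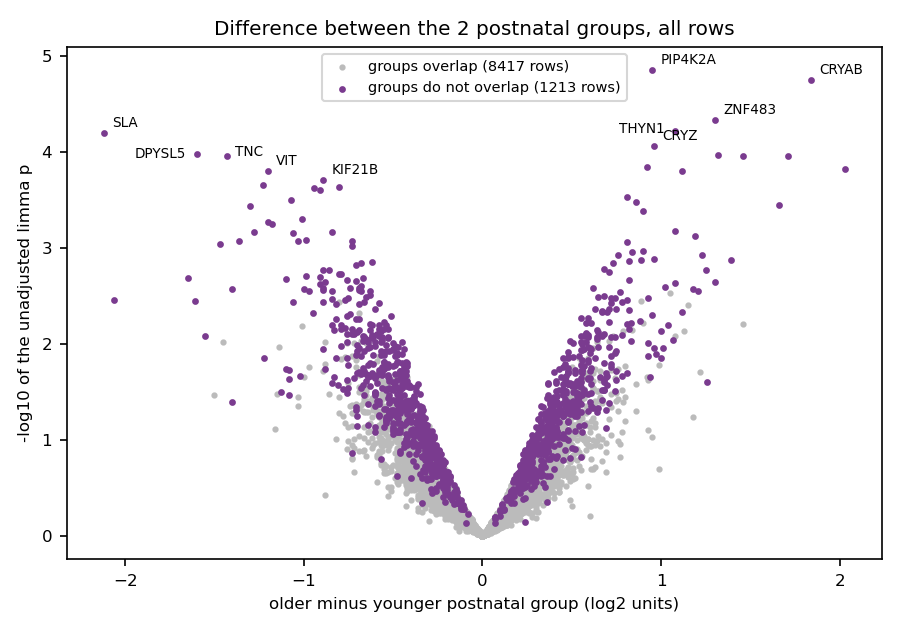
Each of the 9630 rows is a point, with the older minus the younger mean in log2 units on the horizontal axis and -log10 of the unadjusted limma p on the vertical axis; purple marks the 1213 rows whose groups did not overlap. The differences run from -2.12 (SLA) to 2.03, and the 10 labelled genes have the smallest p in each direction among rows with a single gene symbol.

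Among the genes higher in the older group, the 5 with the smallest p were PIP4K2A, CRYAB, ZNF483, THYN1 and CRYZ. PIP4K2A (row 7932530), a kinase of the phosphoinositide pathway, read 5.07, 5.26 and 5.20 at 1, 24 and 182 days and 6.24, 6.12 and 6.01 at 353, 479 and 831 days. The younger values lay within 0.2 of each other, near the fetal mean of 5.04, and all older values lay at least 0.75 above them. The difference was 0.95 ± 0.15 (SE; 1.93-fold; limma adjusted p = 0.0863; higher in 3 of 3 older arrays). CRYAB (row 7951662), a small heat shock protein abundant in oligodendrocytes and astrocytes, read 3.63, 4.05 and 5.01 and then 5.97, 6.07 and 6.16. Its values lay in order of age over all 6 arrays, above a fetal mean of 2.59, and the difference was 1.84 ± 0.30 (3.58-fold; limma adjusted p = 0.0863).

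ZNF483 (row 8157193), a zinc finger protein, read 5.19, 5.82 and 6.24 in the younger arrays against 7.07, 7.12 and 6.96 in the older. Its younger values were spread by age while the older ones lay close together, and the difference was 1.30 ± 0.23 (limma adjusted p = 0.0976). THYN1 (row 7952869), a nuclear protein named for its expression in thymocytes, read 5.02, 4.97 and 5.15 against 6.0, 6.10 and 6.26, a difference of 1.08 ± 0.20 with the same adjusted p. Like PIP4K2A it formed a step, with both groups narrow. CRYZ, a quinone reductase first described as a lens crystallin, read 2.78, 2.74 and 3.05 against 4.07, 3.77 and 3.61, a difference of 0.96 ± 0.18. 2 of its 3 younger values were below the 20th percentile of the array, among its dimmest signals.

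Among the genes lower in the older group, the 5 with the smallest p were SLA, DPYSL5, TNC, VIT and KIF21B. SLA (row 8152988), an adaptor protein related to Src kinases, read 5.21, 4.70 and 4.2 in the younger arrays and 2.52, 3.01 and 2.22 in the older. That was the largest difference of any row, -2.12 ± 0.39 (limma adjusted p = 0.0976). All 3 older values were below the 20th percentile of their array, and with values raised to that percentile the difference was -1.72. DPYSL5 (row 8040725), a collapsin response mediator of growing neurites, read 6.35, 5.99 and 4.90 and then 4.16, 4.37 and 3.93. It was at 7.79 in the fetal group, and the 182-day value lay nearer to the older values than to the other younger ones. The difference was -1.60 ± 0.31 (3.02-fold; limma adjusted p = 0.0976).

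TNC, tenascin C, a matrix protein of developing brain, read 4.94, 5.15 and 3.98 against 3.10, 3.60 and 3.08, with a difference of -1.43 ± 0.28. At 1 and 24 days it was within the range of the fetal arrays (4.84 to 5.54), and from 182 days on it was under it. VIT, vitrin, a matrix protein, read 5.41, 5.96 and 5.23 against 4.61, 4.41 and 3.98. KIF21B, a neuronal kinesin motor, read 5.46, 5.55 and 5.09 against 4.30, 4.79 and 4.34. Both had groups that did not overlap, with differences of -1.20 ± 0.24 and -0.89 ± 0.18 (limma adjusted p = 0.102 and 0.117).

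**Figure D2:**
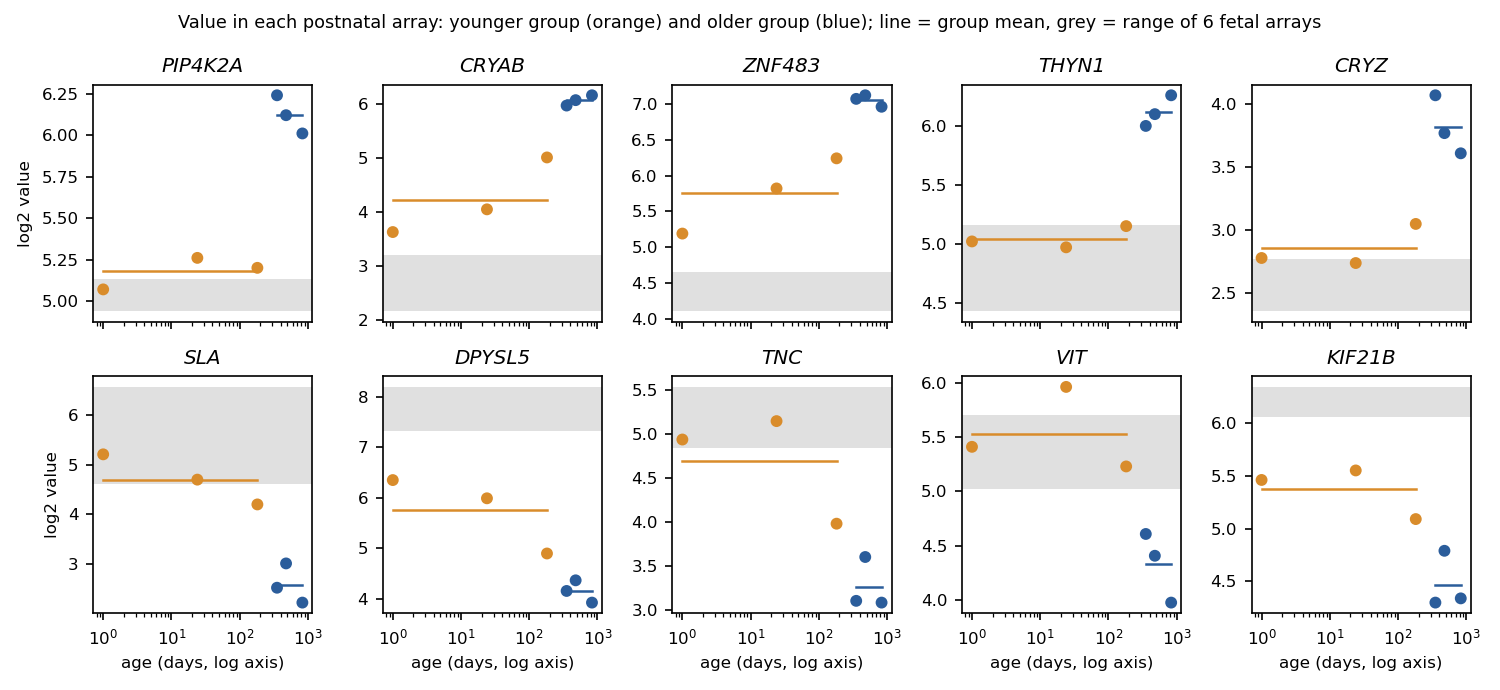
The log2 value of each of these 10 genes is plotted against age in days on a log axis, with orange points for the younger and blue points for the older arrays, a line at each group mean and a grey band for the range of the 6 fetal arrays. PIP4K2A and THYN1 form a step between 182 and 353 days, while CRYAB and DPYSL5 are already displaced at 182 days, at 5.01 and 4.90.

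How firmly these 10 genes stood apart depended on how the values were handled. Of 13 other settings, CRYAB passed the adjusted threshold in 7, PIP4K2A in 6, and ZNF483, THYN1, SLA and DPYSL5 in 5 each. TNC, VIT and KIF21B passed in 4 each and CRYZ in 1. Fitted to the 6 postnatal arrays alone none of them passed, with limma adjusted p from 0.423 (SLA) to 0.551 (KIF21B). No difference of these 10 genes changed sign in any of the 13. Leaving out the 182-day array gave 8 called rows, among them CRYAB (2.23), DPYSL5 (-2.02), TNC (-1.79) and ZNF483 (1.55). Leaving out any other postnatal array gave 0 called rows.

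Read as a gradient, the same 6 arrays gave 6 rows with a slope per doubling of age that passed the test (limma, adjusted p under 0.05; 0.0623% of rows; 802 rows, 8.33%, at an unadjusted p under 0.05). The slope comes from the same arrays and is no independent support for the comparison of the groups. 5 (0.0519%) rose with age: CRYAB by 0.283 ± 0.042 log2 units per doubling (limma adjusted p = 0.0178), PLAAT3 by 0.249 ± 0.035 (0.0178), PRKCD by 0.217 ± 0.036 (0.0319), ZNF483 by 0.205 ± 0.031 (0.018) and EFEMP1 by 0.177 ± 0.029 (0.0319). 1 row (0.0104%), DPYSL5, fell by 0.260 per doubling (SE 0.038; limma adjusted p = 0.0178).

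PLAAT3, a phospholipase and acyltransferase, read 2.80, 3.98 and 4.59 in the younger arrays and 5.16, 4.91 and 5.19 in the older ones. PRKCD, the delta isoform of protein kinase C, read 2.19, 3.22 and 3.61 and then 3.68, 4.0 and 4.69, in order of age throughout. EFEMP1, a fibulin of the extracellular matrix, read 4.69, 5.65 and 5.89 and then 6.32, 6.17 and 6.52. In these 3 genes the 1-day value stood lowest and much of the rise lay within the younger group. Their groups did not overlap either, with differences of 1.30 ± 0.35, 1.12 ± 0.34 and 0.93 ± 0.27 (limma adjusted p = 0.308, 0.367 and 0.325). The 1-day values of PLAAT3 and PRKCD lay under the 20th percentile of that array. With values raised to that percentile their differences were 1.27 and 0.89. The slope was not fitted to values raised in this way. The calls rest on single arrays: 0 rows were called without the 479-day array, 2 (none of these 6) without the 1-day array and 3 (1 of these 6) without the 831-day array. They also rest on the fetal arrays as a source of spread, since the postnatal arrays alone gave 0 called rows (smallest adjusted p = 0.062).

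The 182-day animal lay between the others in age, and its place was described for the rows whose groups did not overlap. In the 558 rows that were higher in the older group, its value lay at a median of 25.7% of the way from the mean of the 1-day and 24-day arrays to the older mean. In the 655 lower rows it lay at 23.1% of the way. It was past the midpoint in 126 and 128 of these rows. Values lay in strict order of age over all 6 arrays in 40 of the higher and 39 of the lower rows. CRYAB, PRKCD, DPYSL3 and SNAP25 were among these, whereas PIP4K2A, THYN1 and SLA were not. As non-overlap fixes the side on which the 182-day value must lie, these shares describe the rows and test nothing.

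To order the remaining genes by role, 40 lists of cell type markers, pathways and gene families were used. They held 1373 genes, of which 785 had a row. No member passed the adjusted threshold between the groups. The groups did not overlap for 147 of the 785, 59 higher and 88 lower. Among lists with at least 17 measured genes, the shares furthest above the background of 12.8% were those of immature and migrating neurons (11 of 20), myelin and oligodendrocytes (6 of 17), astrocytes (6 of 18), cadherins and protocadherins (11 of 34), neuropeptides (7 of 22), glutamate receptors (8 of 26) and the presynaptic machinery (11 of 39). The smaller complement and interferon lists, with 14 and 7 measured genes, each had a share of 28.6%. The lists were chosen with earlier results of these data known, so these shares describe the lists and test nothing. The list members with values below were picked because their groups did not overlap, or as counterexamples, after their values were seen.

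**Figure D3:**
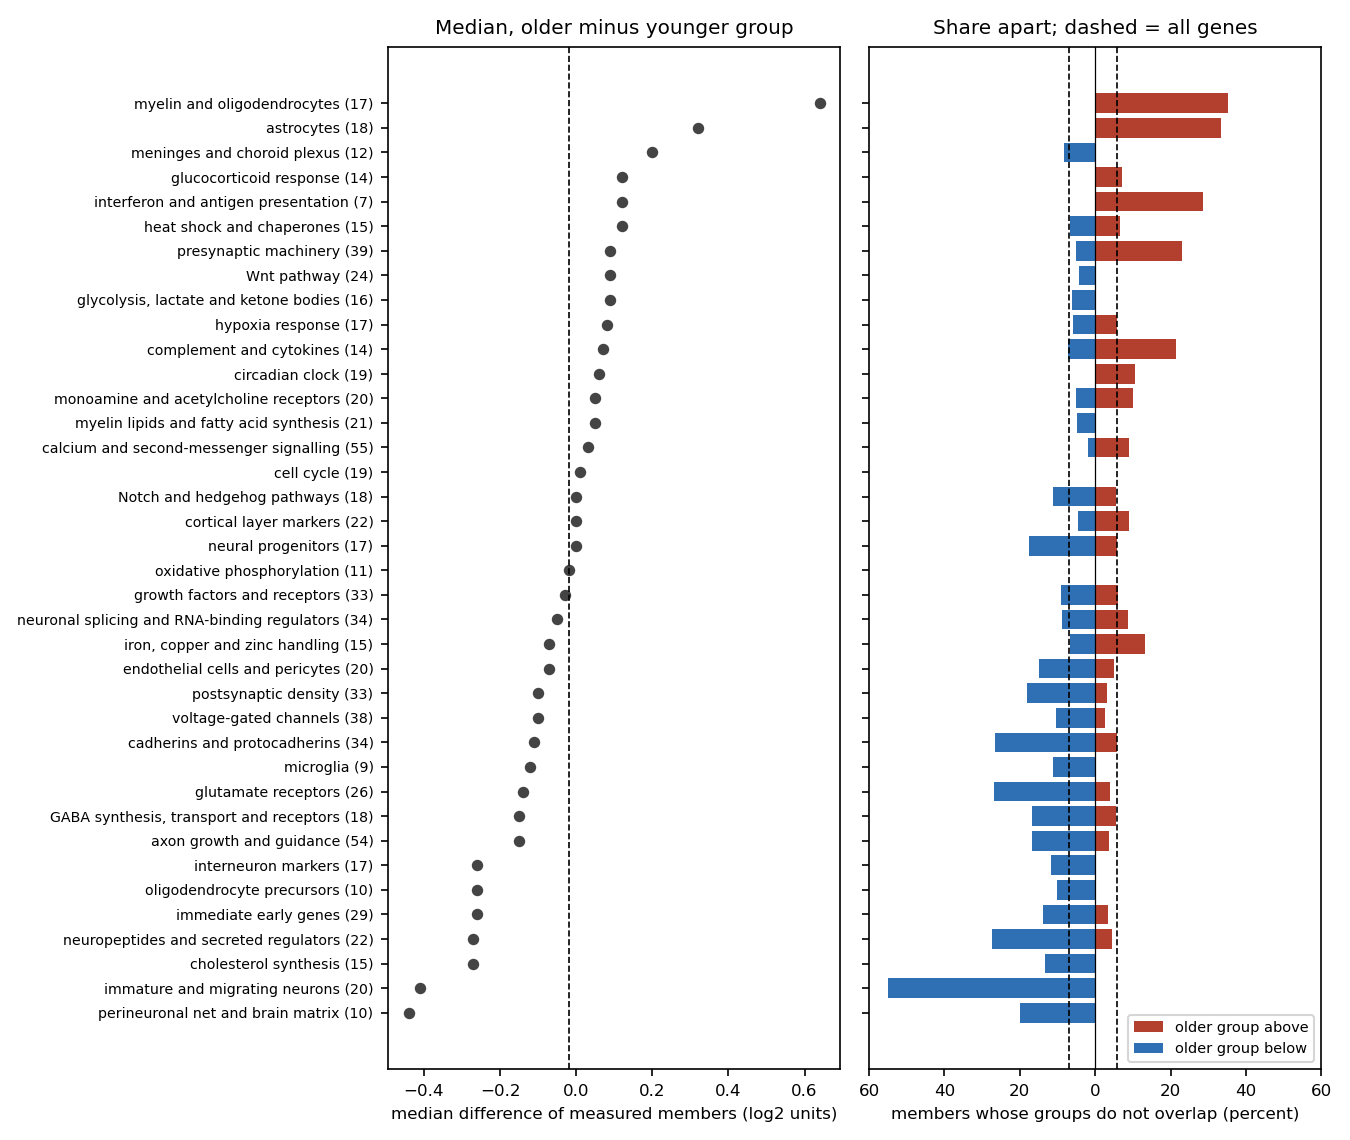
For each list with at least 7 measured genes (number in brackets), the left panel shows the median difference of its members in log2 units and the right panel the percent of members whose groups did not overlap, to the right where the older group was above and to the left where it was below. The dashed lines mark the values over all 8785 genes, a median of -0.02 and shares of 5.9% and 6.89%; the lower share is longest for immature neurons and the higher share for myelin.

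Genes of immature and migrating neurons were lower in the older group. Of 20 measured members, 11 had groups that did not overlap (55%), all lower, and 17 of 20 differences were below 0, with a median of -0.41 against -0.02 over all genes. The enzymes of polysialic acid, a sugar that keeps young neurons mobile, were ST8SIA2 and ST8SIA4. ST8SIA2 read 5.24, 4.66 and 4.5 in the younger and 3.29, 3.75 and 2.42 in the older arrays, a difference of -1.65 ± 0.44. ST8SIA4 read 5.80, 5.43 and 5.31 against 4.92, 5.09 and 4.53 (-0.67 ± 0.22). ST8SIA2, the form of fetal brain, thus stood further down than ST8SIA4, and both were highest at 1 day and lowest at 831 days.

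SLA and DPYSL5, described above, belong to the list. The collapsin response mediators link guidance signals to the cytoskeleton of growth cones. Beside DPYSL5, DPYSL3 read 6.93, 6.66 and 5.91 against 5.69, 5.16 and 4.75, in strict order of age (-1.30 ± 0.29; 2.46-fold). CRMP1 read 5.80, 5.98 and 5.79 against 5.33, 5.01 and 5.24 (-0.66 ± 0.22), whereas DPYSL2, a further member of the family outside the list, differed by 0.04 ± 0.21. The microtubule protein DCX, doublecortin, which migrating neurons need, read 5.76, 5.51 and 5.13 against 4.94, 5.09 and 4.31 (-0.68 ± 0.28). Its younger mean of 5.47 was already below the fetal mean of 7.43. NREP (-0.77), NEUROD6 (-0.49), MARCKSL1 (-0.46) and STMN2 (-0.36) also had groups that did not overlap, STMN2 only in the unrounded values, with 8.90 at both 182 and 831 days.

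Other members of the list showed little difference beyond their SE. STMN1, stathmin, differed by -0.23 ± 0.22, and SOX11, a transcription factor of young neurons, by -0.22 ± 0.30 with values from 2.44 to 3.34. TBR1, a transcription factor of deep-layer neurons, differed by 0.05 ± 0.24. The 11 members without overlap thus held the polysialic acid enzymes and several proteins of growth cones and microtubules, but not every member of the list. The mean of the list, centred over the 6 arrays, was 0.45, 0.28 and 0.12 in the younger and -0.22, -0.16 and -0.47 in the older arrays, and did not overlap as deposited, after quantile normalization, after centring on array medians or with a floor.

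**Figure D4:**
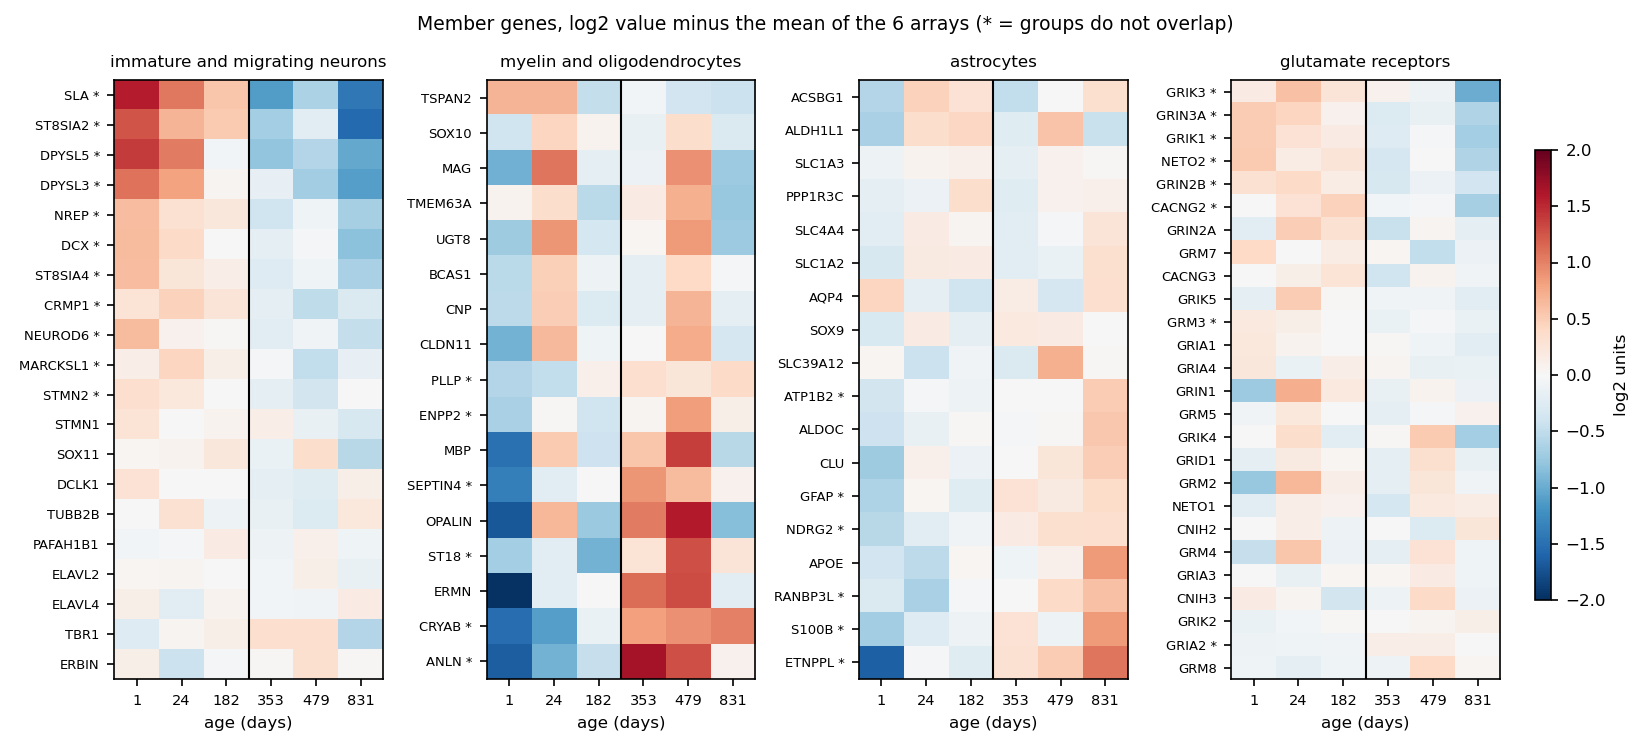
Each cell shows a member gene in a postnatal array as its log2 value minus the mean over the 6 arrays, from blue (-2) to red (2), for the genes of immature neurons, myelin, astrocytes and glutamate receptors; an asterisk marks genes whose groups did not overlap and the black line divides the groups. The immature neuron genes at the top pass from red to blue across the line, while many myelin genes are high at 24 and 479 days and low at 1 and 831 days.

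Genes of myelin and oligodendrocytes were higher in the older group in part. Of 17 measured members 6 had groups that did not overlap (35.3%), all higher, and 15 of 17 differences were above 0, with a median of 0.64. With a floor (dimmer values raised to the 20th percentile of each array) the median was 0.26. With it 4 members had groups that did not overlap, against 5 after centring on array medians and 7 after quantile normalization. ANLN, a scaffold that joins septins to actin and is present in mature myelin, read 0.83, 1.54 and 2.03 in the younger and 4.15, 3.78 and 2.57 in the older arrays. Its difference of 2.03 ± 0.41 was the largest higher one of the table, but 3 of its younger values and 1 of its older values lay under the 20th percentile. Its groups overlapped with the floor, at 2.87, 3.12 and 3.01 against 4.15, 3.78 and 2.73. SEPTIN4, a partner of ANLN in the septin filaments of myelin, read 2.63, 3.78 and 3.99 against 4.89, 4.64 and 4.09 (1.07 ± 0.36).

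ST18, a transcription factor of the oligodendrocyte lineage, read 1.82, 2.29 and 1.55 against 2.76, 3.79 and 2.75 (1.21 ± 0.34). All of its younger values and its 353-day value lay under the 20th percentile. Its groups overlapped with the floor, at 2.87, 3.12 and 3.01 against 2.96, 3.79 and 2.75. ENPP2, autotaxin, which oligodendrocytes secrete, read 4.93, 5.60 and 5.17 against 5.63, 6.41 and 5.69 (0.68 ± 0.27). PLLP, plasmolipin, a membrane protein of myelin, read 4.58, 4.68 and 5.27 against 5.50, 5.41 and 5.55 (0.64 ± 0.21). With CRYAB and the 2 genes above these make up the 6 in the values as deposited. Of these 6, ANLN and ST18 were not apart with the floor.

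The main structural genes of myelin did not separate the groups. MBP, myelin basic protein, read 4.87, 6.88 and 5.94 against 6.92, 7.75 and 5.81, so the 831-day value lay under 2 of the younger values. MAG, the myelin-associated glycoprotein, read 2.99, 5.03 and 3.77 against 3.84, 4.86 and 3.23, and its difference was 0.05 ± 0.48. CNP, an enzyme of the myelin sheath, differed by 0.20 ± 0.29, UGT8, the enzyme that makes galactocerebroside, by 0.12 ± 0.41, and CLDN11, the tight junction protein of myelin, by 0.26 ± 0.35. In MBP, MAG, CNP, UGT8 and CLDN11 alike the 24-day and 479-day arrays read high. The list mean was -0.88, 0.18 and -0.29 against 0.37, 0.81 and -0.19, and overlapped under each scaling. The 24-day and 479-day arrays also had the highest array medians. With each array centred on its median the list mean was 0.09 in place of 0.18 at 24 days and 0.63 in place of 0.81 at 479 days, and it was 0.41 at 353 days; the part of the array medians in these values was not tested.

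Of 10 measured genes of oligodendrocyte precursors 1 had groups that did not overlap (10%), and 9 of 10 differences were below 0, with a median of -0.26. PDGFRA, the growth factor receptor that defines these cells, read 4.35, 4.82 and 4.39 against 4.13, 3.22 and 4.35 (-0.62 ± 0.27), with the low value at 479 days. CSPG5, a brain proteoglycan, read 6.83, 7.13 and 6.87 against 6.57, 6.79 and 6.67 (-0.27 ± 0.16). Few of the lipid genes that myelin draws on separated the groups. Of 21 genes of myelin lipids and fatty acids 1 had groups that did not overlap, ELOVL2, an elongase of polyunsaturated fatty acids, with 6.29, 5.60 and 5.45 against 5.06, 5.12 and 5.39 (-0.59 ± 0.23). Of 15 genes of cholesterol synthesis 11 differences were below 0 (median -0.27). HMGCS1, the synthase ahead of the rate-limiting reductase, read 7.77, 7.89 and 7.62 against 7.18, 7.07 and 7.0 (-0.68 ± 0.17), after a fetal mean of 8.83.

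Astrocyte genes were higher in the older group for 6 of 18 measured members (33.3%), with none lower among those without overlap and a median of 0.32. ETNPPL, an enzyme that breaks down phosphoethanolamine, read 3.57, 5.18 and 4.96 in the younger and 5.51, 5.71 and 6.27 in the older arrays (1.26 ± 0.51). S100B, a calcium-binding protein of astrocytes, read 6.16, 6.60 and 6.76 against 7.15, 6.76 and 7.71 (0.70 ± 0.29), with its groups apart only in the unrounded values at 182 and 479 days. RANBP3L read 5.53, 5.17 and 5.78 against 5.81, 6.20 and 6.41 (0.65 ± 0.30). NDRG2, a protein of the alpha/beta hydrolase fold found in astrocytes, read 7.55, 7.88 and 8.03 against 8.27, 8.42 and 8.44, in strict order of age (0.56 ± 0.21).

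GFAP, the intermediate filament of astrocytes, read 7.21, 7.87 and 7.58 against 8.12, 8.01 and 8.19 (0.55 ± 0.37), and ATP1B2, the astrocyte subunit of the sodium pump, differed by 0.34 ± 0.30. The uptake carriers of glutamate showed no such shift, with -0.01 ± 0.36 for SLC1A2 and -0.05 ± 0.20 for SLC1A3. The water channel AQP4 differed by 0.10 ± 0.27 and the folate enzyme ALDH1L1 by -0.07 ± 0.31. The list mean was -0.42, -0.06 and -0.01 against -0.03, 0.15 and 0.36, which overlapped as deposited but not after centring or quantile normalization.

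Over all 39 measured presynaptic genes the differences were divided, 22 above and 17 below 0, with a median of 0.09. Of these genes 11 had groups that did not overlap (28.2%), 9 higher and 2 lower. After centring on array medians 6 were higher and 2 lower without overlap, and after quantile normalization 9 and 2. The fusion proteins led. VAMP1, a vesicle SNARE of fast-firing neurons, read 3.45, 3.27 and 3.75 against 3.84, 4.76 and 4.76 (0.96 ± 0.24). SNAP25, a SNARE of the plasma membrane, read 7.24, 7.65 and 7.84 against 8.02, 8.33 and 8.45, in strict order of age (0.69 ± 0.27). VAMP2, the main vesicle SNARE of forebrain, read 6.46, 6.57 and 6.57 against 6.75, 6.87 and 7.27 (0.43 ± 0.20).

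SYT1, the calcium sensor of release, read 8.38, 8.34 and 8.37 against 8.5, 8.77 and 9.09 (0.42 ± 0.18). The vesicle proteins SV2B (0.38), SYN2 (0.33) and SYN1 (0.32), the active zone protein ERC2 (0.31) and the SNARE-recycling factor NAPB (0.24) were also higher without overlap. SYP, synaptophysin, differed by -0.02 ± 0.26. The 2 lower genes were UNC13C, a priming factor, with 6.53, 6.08 and 6.14 against 6.01, 5.92 and 4.69 (-0.71 ± 0.33), and RAB3C, a vesicle GTPase (-0.29 ± 0.17). Without the 479-day array the median of the list was -0.05, so its direction rests on that array, while those named here are single genes.

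Genes of the postsynaptic side were lower more often than higher. Of 33 genes of the postsynaptic density 7 had groups that did not overlap, 1 higher and 6 lower, with a median of -0.10. SORBS2, an actin adaptor, read 6.06, 5.84 and 5.87 against 5.52, 5.48 and 5.14 (-0.54 ± 0.17). HOMER2, a scaffold that binds metabotropic receptors, differed by -0.52 ± 0.25, the synapse organiser LRRTM2 by -0.43 ± 0.22, and the scaffolds DLG3 and DLG2 by -0.40 ± 0.19 and -0.25 ± 0.16. GPHN, the scaffold of inhibitory synapses, differed by only -0.10 ± 0.16, and ANKS1B, the higher gene, by 0.07 ± 0.14, both with narrow groups.

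Of 26 glutamate receptor genes and their auxiliary subunits 8 had groups that did not overlap (30.8%), 1 higher and 7 lower, and 20 of 26 differences were below 0 (median -0.14). The juvenile NMDA receptor subunits were among the lower ones. GRIN3A, a subunit that limits calcium entry in young synapses, read 5.27, 5.18 and 4.84 in the younger and 4.48, 4.61 and 4.15 in the older arrays (-0.68 ± 0.19; limma adjusted p = 0.308). GRIN2B, the subunit that predominates early in life, read 7.44, 7.52 and 7.29 against 6.82, 7.02 and 6.75 (-0.55 ± 0.21). Its counterpart of mature synapses, GRIN2A, was not higher, at 6.39, 7.09 and 6.90 against 6.16, 6.65 and 6.42 (-0.38 ± 0.27), and the obligate subunit GRIN1 differed by -0.14 ± 0.28.

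Kainate receptors followed the same direction in part. GRIK3 read 5.37, 5.79 and 5.45 against 5.28, 5.10 and 4.2 (-0.68 ± 0.24), GRIK1 read 6.04, 5.81 and 5.69 against 5.27, 5.50 and 4.84 (-0.64 ± 0.25), and their auxiliary subunit NETO2 differed by -0.62 ± 0.20. Among AMPA receptor genes, GRIA2, the subunit that makes the channel impermeable to calcium, was the higher gene of the list, with 7.73, 7.75 and 7.77 against 7.97, 7.97 and 7.82 (0.17 ± 0.15). GRIA1 differed by -0.18 ± 0.17, the AMPA receptor chaperone CACNG2 by -0.48 ± 0.24 and the metabotropic receptor GRM3 by -0.21 ± 0.22. The list mean was 0.00, 0.22 and 0.07 against -0.13, 0.05 and -0.22 as deposited, which overlapped at 479 days, and it did not overlap after centring or quantile normalization.

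Of 18 genes of GABA signalling 4 had groups that did not overlap (22.2%). GABRA5, a subunit of extrasynaptic receptors, read 7.62, 7.57 and 7.35 against 6.79, 6.88 and 6.82 (-0.68 ± 0.26), after a fetal mean of 6.82, so the older values lay close to the fetal mean. GABRA2, a subunit abundant in immature synapses, read 6.56, 6.68 and 6.66 against 6.31, 6.19 and 6.34 (-0.35 ± 0.17), and GABRA4 was higher (0.29 ± 0.22). SLC6A11, a glial GABA transporter, read 4.25, 4.45 and 3.82 against 3.66, 3.79 and 3.37 (-0.57 ± 0.19). The synthesis enzymes GAD1 and GAD2 differed by -0.04 ± 0.20 and -0.15 ± 0.26. The chloride carriers that set the sign of the GABA response, SLC12A5 and SLC12A2, differed by 0.00 ± 0.33 and 0.22 ± 0.19.

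Matrix and adhesion genes were mostly lower. Of 10 measured genes in the list of perineuronal net and matrix genes 9 differences were below 0, the median was -0.44, and the groups of TNC and HAPLN1 did not overlap (20%). HAPLN1, the link protein that ties proteoglycans to hyaluronan, read 3.77, 3.68 and 3.04 in the younger and 1.75, 2.66 and 2.54 in the older arrays (-1.18 ± 0.27), with all 3 older values under the 20th percentile. Raised to the floor, its 479-day value was 3.25, so its groups overlapped. TNC was then the only member apart, and the median of the list was -0.38. The proteoglycan NCAN differed by -0.57 ± 0.24 and tenascin R, TNR, by -0.51 ± 0.23, both with an overlap at 479 days. The list mean was 0.30, 0.46 and 0.00 against -0.35, 0.01 and -0.42.

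Of 34 cadherins, protocadherins and their partners 11 had groups that did not overlap (32.4%), 2 higher and 9 lower. CDH6, a cadherin of early cortical patterning, read 6.05, 6.13 and 5.61 against 5.03, 5.05 and 4.01 (-1.23 ± 0.26; limma adjusted p = 0.119). FAT4, a giant cadherin, read 4.52, 4.58 and 4.23 against 3.78, 3.74 and 3.62 (-0.73 ± 0.24), after a fetal mean of 5.94. PCDH10, FAT3, CDH11, CDH5, PCDH19, CDH10 and CTNNA2 were lower by smaller amounts, from -0.43 to -0.29. CDH20 was higher with 4.81, 5.13 and 5.12 against 5.25, 5.40 and 5.51 (0.37 ± 0.21), as was beta-catenin, CTNNB1, by 0.11 ± 0.15.

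Of 54 genes of axon growth and guidance 11 had groups that did not overlap (20.4%), 2 higher and 9 lower, with a median of -0.15. The lower ones were receptors and adhesion molecules of growing axons. EPHB1, an ephrin receptor, read 4.53, 4.82 and 4.77 against 4.05, 4.25 and 4.03 (-0.60 ± 0.18). L1CAM, an adhesion molecule of axon bundles, read 5.87, 6.43 and 6.17 against 5.48, 5.69 and 5.51 (-0.60 ± 0.20). The slit receptor ROBO2 read 7.06, 7.04 and 6.76 against 6.42, 6.60 and 6.53 (-0.44 ± 0.15). PLXNA1, PLXND1 and NEO1, which are receptors for semaphorins and netrin family ligands, differed by -0.63, -0.53 and -0.43, CNTNAP2 by -0.63, RGMB by -0.46 and EPHA5 by -0.33. NRCAM, an adhesion molecule of the nodes of Ranvier, was higher (7.25, 7.56 and 7.67 against 7.92, 7.82 and 7.93; 0.40 ± 0.22), as was the ligand SEMA3A (0.24 ± 0.20).

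Neuropeptide genes were lower more often than higher. Of 22 measured neuropeptides and secreted regulators 17 differences were below 0 and 5 above, with a median of -0.27, and 7 had groups that did not overlap (31.8%), 1 higher and 6 lower. IGF1, insulin-like growth factor, read 5.25, 4.52 and 4.34 against 3.87, 3.56 and 3.70 (-0.99 ± 0.24). TAC1, the precursor of substance P, read 4.91, 4.40 and 4.37 against 3.57, 3.99 and 2.89 (-1.08 ± 0.41). SCG2, a granin of dense-core vesicles, read 6.12, 5.65 and 5.74 against 5.02, 5.48 and 4.78 (-0.75 ± 0.28). These 3 were lower in every older array than in any younger one.

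PDYN, the precursor of the dynorphin opioids, went the other way, with 3.80, 4.05 and 4.18 against 4.36, 5.13 and 5.32, in strict order of age (0.93 ± 0.31), after a fetal mean of 0.99. NPPA (-0.95 ± 0.29), the corticotropin-releasing hormone CRH (-0.71 ± 0.33, with all 6 values under the 20th percentile) and PNOC, the nociceptin precursor (-0.47 ± 0.22), completed the lower ones. Among 17 markers of interneurons TAC1 and CRH were the only 2 without overlap (11.8%). SST, somatostatin, differed by -0.03 ± 0.19, and PVALB, parvalbumin, by 0.44 ± 0.35 with a 182-day value of 3.93 above all others. The list mean of the neuropeptides was 0.10, 0.19 and 0.13 against -0.09, 0.05 and -0.37 and did not overlap under any scaling; without the 831-day array its median was -0.09.

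Immediate early genes, which neurons switch on within minutes of activity, were lower for 23 of 29 measured members, with a median of -0.26, or -0.17 with the floor. Groups did not overlap for 5 (17.2%), 1 higher and 4 lower. NR4A1, a nuclear receptor of this class, read 4.31, 4.90 and 4.53 in the younger and 3.44, 3.84 and 3.54 in the older arrays (-0.97 ± 0.27; limma adjusted p = 0.308). FOS read 3.59, 4.15 and 3.52 against 2.96, 3.03 and 3.11 (-0.72 ± 0.24). PTGS2, an inducible prostaglandin synthase, differed by -0.60 ± 0.26 and EGR1 by -0.48 ± 0.39.

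NPAS4, the factor most specific to neuronal activity, read 5.29, 3.88 and 3.68 against 3.26, 3.77 and 2.91 (-0.97 ± 0.36), with an overlap at 479 days, and ARC, a synaptic effector, differed by -0.53 ± 0.21. KLF2 was the higher gene (0.53 ± 0.23), with 5 of its 6 values under the 20th percentile. Side by side, the median of the list was 1.19 higher in the younger than in the fetal group. The fetal means of NR4A1 and FOS were 2.30 and 1.59, so the older values lay between fetal and younger levels. Among 14 glucocorticoid-responsive genes, only NR3C2, the mineralocorticoid receptor, had groups that did not overlap (4.05, 4.25 and 4.49 against 4.61, 5.20 and 5.32; 0.78 ± 0.23). How the deaths may have affected activity-dependent transcripts was not tested.

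Of 38 voltage-gated channel genes 5 had groups that did not overlap (13.2%), close to the background. CACNA1G, a low-threshold calcium channel, read 4.08, 4.52 and 4.36 against 4.03, 3.86 and 2.78 (-0.76 ± 0.26), and SCN3A, the sodium channel of fetal neurons, 5.63, 5.61 and 5.37 against 5.28, 5.33 and 4.51 (-0.50 ± 0.26). KCNH7 and CACNA2D1 were lower by smaller amounts, and KCNAB2, a potassium channel subunit, was higher (0.61 ± 0.26). KCNQ3, a channel of the M-current, had the smallest p of the list but overlapped, with 5.76, 6.41 and 5.87 against 5.24, 5.79 and 4.98. Of 55 genes of calcium and second-messenger signalling 6 had groups that did not overlap (10.9%), 5 higher and 1 lower. CAMKK1, a kinase upstream of the calcium-dependent kinases, had the smallest p there with an overlap (0.73 ± 0.24).

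Of 20 receptors for monoamines and acetylcholine 3 had groups that did not overlap (15%). CHRNA6, a nicotinic subunit, read 4.04, 3.57 and 3.78 against 3.19, 2.80 and 0.74 (-1.55 ± 0.51), with 2 older values under the 20th percentile, and with the floor its difference was -0.74. HTR1A, a serotonin receptor, was higher (2.97, 3.21 and 3.09 against 3.22, 3.75 and 3.79; 0.50 ± 0.22). MAOB, the glial monoamine oxidase, read 5.12, 4.71 and 5.38 against 5.90, 5.89 and 5.39 (0.66 ± 0.26).

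Genes of innate defence were higher in small numbers. Of 7 measured genes of interferon response and antigen presentation, IFIT1 and IFIT2, which bind viral RNA, had groups that did not overlap (28.6%). IFIT1 read 2.49, 3.35 and 3.63 in the younger and 4.86, 4.84 and 4.76 in the older arrays (1.66 ± 0.36; limma adjusted p = 0.141), and IFIT2 read 2.64, 2.57 and 2.84 against 3.87, 3.20 and 3.26 (0.76 ± 0.19). B2M, the light chain of class I molecules, read 6.16, 6.51 and 7.24 against 7.11, 7.20 and 7.58 (0.66 ± 0.26). All of the younger IFIT2 values and its 479-day value were under the 20th percentile of their arrays. With the floor the median of the list was -0.02 in place of 0.12, and 2 members were still apart. Only 7 of 49 listed genes had a row, so the list says little about the pathway.

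Of 14 complement and cytokine genes 4 had groups that did not overlap (28.6%). SERPING1, the C1 inhibitor, read 2.66, 3.64 and 3.06 against 4.01, 3.80 and 4.41 (0.95 ± 0.29). TNFRSF1A, a receptor of tumour necrosis factor, read 3.14, 3.18 and 3.23 against 3.70, 3.85 and 3.74 (0.58 ± 0.19). C7, a late complement component, differed by 1.18 ± 0.33 with 3 younger values and 1 older value under the 20th percentile, and by 0.66 with the floor. The chemokine CXCL12, which guides migrating neurons and their precursors, was the lower one (4.76, 4.87 and 4.34 against 3.74, 4.24 and 3.91; -0.69 ± 0.24).

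Markers of microglia, vessels, meninges and blood were also examined. Of 9 microglia genes CX3CR1, the fractalkine receptor, was lower without overlap (3.93, 4.82 and 3.95 against 3.45, 3.90 and 3.54; -0.60 ± 0.31), while P2RY12 differed by -0.12 ± 0.31. SALL1 had the smallest p of the list, with 3.23, 3.21 and 1.92 against 3.54, 3.67 and 2.94 and an overlap (0.60 ± 0.31; 0.23 with the floor). Of 20 genes of endothelial cells and pericytes 4 had groups that did not overlap (20%). PECAM1, an endothelial adhesion molecule, read 3.80, 4.11 and 4.2 against 3.48, 3.55 and 3.37 (-0.57 ± 0.18), ABCB1, the efflux pump of brain vessels, differed by -0.48 ± 0.22 and CDH5 by -0.36 ± 0.18. The transporter SLCO1A2 was higher (0.67 ± 0.22).

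The summed level of the endothelial list, as its mean, ran from -0.10 to 0.28 in the younger and from -0.24 to 0.16 in the older arrays. That of the microglia list ran from -0.17 to 0.19 and from -0.15 to 0.10. For meninges and choroid plexus, with 1 of 12 members apart (COL1A1, a fibrillar collagen, -0.59 ± 0.26), it ran from -0.31 to 0.46 and from -0.07 to 0.17. COL1A1 was under the 20th percentile on 2 younger and all 3 older arrays, and with the floor its difference was -0.28, 0 of the 12 members were apart and the median of the list was 0.02 in place of 0.20. Only ALAS2 of 23 listed blood cell genes had a row, with all 6 values under the 20th percentile and a difference of 0.08 ± 0.30. The part of these cell types in the results above was not tested.

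Among regulators of transcription and RNA, the counts lay near the background in most lists. Of 34 splicing and RNA-binding genes 6 had groups that did not overlap (17.6%). MBNL2 and MBNL1, splicing factors that promote adult exon use, read 5.96, 6.39 and 6.48 against 6.76, 6.97 and 6.85 (0.58 ± 0.18) and 5.46, 5.45 and 5.51 against 5.84, 5.90 and 5.79 (0.37 ± 0.16). MSI1, an RNA-binding protein of progenitors, differed by -0.36 ± 0.22. Of 19 clock genes BHLHE41, a repressor of the clock, read 3.65, 3.95 and 3.97 against 4.51, 5.21 and 5.10 (1.08 ± 0.25) and RORA, a nuclear receptor that activates it, was higher by 0.35 ± 0.19. The times of day of the deaths are not labelled.

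Of 22 layer markers 3 had groups that did not overlap (13.6%). CUX2, a factor of upper-layer neurons, read 5.20, 5.82 and 5.73 against 4.71, 4.96 and 5.0 (-0.69 ± 0.20), while RXFP1 and TSHZ2 were higher by 0.25 ± 0.19 and 0.35 ± 0.21. APC, the scaffold of the beta-catenin destruction complex, was the only member of 24 in the Wnt list without overlap. It read 7.04, 7.07 and 7.09 against 6.28, 6.46 and 6.27, a step with very narrow groups (-0.73 ± 0.18; limma adjusted p = 0.216). Of 18 Notch and hedgehog genes HES1, a target of Notch in progenitors, differed by -0.48 ± 0.20. Among 17 progenitor genes PROM1 (-0.54 ± 0.22), HES1 and TNC were lower and LIFR higher (0.22 ± 0.15) without overlap. In this list 2 genes were lower and 1 higher without overlap once the floor was applied.

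Of 19 cell cycle genes 0 had groups that did not overlap. CDK6, a kinase of the G1 phase with the smallest p there, differed by 0.80 ± 0.35, and the proliferation marker MKI67 lay under the 20th percentile on all 6 arrays. None of the 11 measured genes of oxidative phosphorylation was apart, and ATP5PO, a subunit of ATP synthase with the smallest p there, differed by 0.25 ± 0.20. Of 16 genes of glycolysis, lactate and ketone bodies CPT1C, a neuronal acyltransferase homologue, was lower (5.41, 5.43 and 5.36 against 5.04, 5.09 and 4.78; -0.43 ± 0.16). Only 11 of 69 and 16 of 35 listed genes of these pathways had a row.

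The remaining lists gave few genes. Of 33 growth factors and their receptors 5 had groups that did not overlap (15.2%). Beside IGF1, the ligands PDGFA (-0.54 ± 0.19) and NRG3 (-0.45 ± 0.20) were lower and the receptors INSR (0.50 ± 0.20) and FGFR1 (0.37 ± 0.19) higher. Among 15 genes of metal handling STEAP2, a metalloreductase, read 3.88, 4.23 and 4.43 against 5.11, 5.07 and 4.93 (0.86 ± 0.19; limma adjusted p = 0.138). Among 15 chaperones PDIA4 (-0.41 ± 0.26) and CRYAB were apart, and among 17 hypoxia-responsive genes MXI1 (0.25 ± 0.20) and EGLN1 (-0.20 ± 0.18). KDM3A, a demethylase with the smallest p of the hypoxia list, differed by 0.32 ± 0.26. The 2 measured ribosomal protein genes, with RPS7 the one of smaller p, overlapped.

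**Figure D5:**
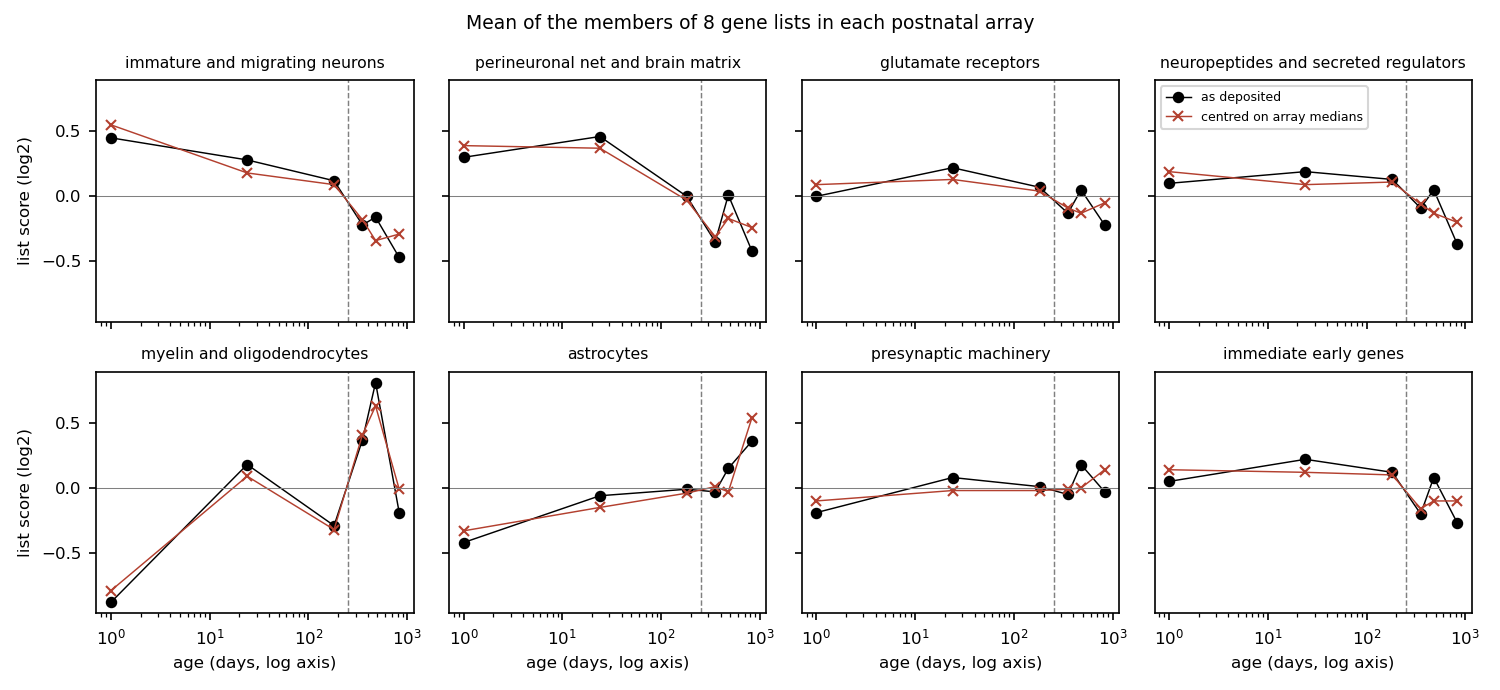
The mean of the members of 8 lists, each gene centred over the 6 arrays, is plotted in log2 units against age in days on a log axis, as deposited (black) and after each array was centred on its median (red); the dashed line divides the groups. The immature neuron list reads 0.12 at 182 days and -0.22 at 353 days, while the myelin list reads -0.29 at 182 days, 0.81 at 479 days and -0.19 at 831 days.

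Array medians touched several of these list means. As deposited, the groups' means did not overlap for immature neurons and neuropeptides, of all 40 lists. After centring on array medians the means of glutamate receptors, the perineuronal net list, immediate early genes, cadherins and interneuron markers did not overlap either, all lower in the older group. The means of astrocytes, of the 7 interferon genes and of the presynaptic list did not overlap then and were higher, the presynaptic one by little, with -0.01 at 353 days against -0.02 at 24 and 182 days. As deposited, the 479-day array had the highest and the 831-day array the lowest older mean in the lists of glutamate receptors, perineuronal net and immediate early genes. With quantile normalization the presynaptic means overlapped again. The myelin means overlapped in every case.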

How the data were processed

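Superior frontal gyrus of 12 male macaques was measured, 1 array per animal. The table that the authors deposited has 12 value columns over 9630 rows and was taken as log2 expression. No source used here states the log base, and 2 was inferred because values span -0.86 to 10.6. The sources used here do not give the background correction, the normalization or the row selection. Array medians differ, so no quantile matching over the present rows is visible.

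Symbols were read from GEO's platform annotation: 8848 rows carried 1 symbol, 229 several and 553 none, and only rows with 1 were named. A macaque gene table held 8628 of these symbols. Where a gene had more than 1 row (52 genes), the row of highest mean over the 6 postnatal arrays stood for it.

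Ages in the labels set the groups; the labels carry no replicate numbers. limma 3.58.1 (R 4.3.3; lmFit, eBayes) was fitted to the deposited log2 values of all 12 arrays in 3 groups, two-sided, with Benjamini-Hochberg adjustment over all rows and a threshold of 0.05. Fetal arrays contributed to the spread but to neither postnatal mean. In the comparison of groups, p-values measure the spread between single animals of different ages within a group. Any trend with age inside a group is part of that spread. For the slope, log2 of age was fitted over the 6 postnatal arrays with the fetal arrays as a group of their own. Gene lists were described by counts, medians and means only. The code was tested on simulated data.

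The comparison, the lists and the rule for named genes were chosen with earlier results of these data known. By that rule the text names up to 12 called genes per direction whose groups did not overlap or, as none was called, the 5 of smallest p in each direction. It also names the member of smallest p in each list, as no list had a called member, and up to 5 genes per direction called in the slope. Genes beyond the rule were picked once their values had been seen. Other settings were a fit of the postnatal arrays alone, quantile normalization, centring by array median, leaving out the dimmest 25 percent, raising values to each array's 20th percentile (the floor), eBayes with trend and robust options, array weights, leaving out each postnatal array, averaging the rows of a gene, and days in place of log2 days for the slope.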

Additional observations from a re-analysis of the deposited data

Results flagged for a closer look

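Each group of 6 fetal arrays was searched for a single array far from the rest, for the 47 genes named by the rule; groups of 3 are too small for this search. Chance flags about 1 in 20 groups. 4 of the 47 were found. NDRG2 read 7.37 at 30 days before birth, where the nearest fetal value was 6.81, and MBNL2 read 5.59 in the same fetus, with 5.26 the nearest. Both are genes with higher values after birth. PECAM1 read 3.20 at 72 days before birth (nearest 3.62), and CUX2 read 5.24 at 35 days before birth (nearest 5.63). These fetal values enter the shared spread of the fit and no difference between the postnatal groups.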

How the results depend on the processing

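The number of called rows between the groups (0 as reported) was 0 with the 6 postnatal arrays alone, 7 after centring, 15 after quantile normalization, 2 without the dimmest rows, 26 with the floor, 20 with trend and robust and 391 with array weights, where the 353-day array had a weight of 6.33 and the other older arrays 0.438 and 0.503. Of the 47 named genes 4, 10, 2, 13, 12 and 25 were called in these last 6 settings. Leaving out single arrays gave 0 to 8 called rows and 0 to 4 named genes, the highest without the 182-day array. Rows whose groups did not overlap numbered 1823 to 2631 without single arrays, and list genes 191 to 246, as fewer values must then lie apart; in the other settings they were 1024 to 1494 and 132 to 162. The slope gave 0 rows with the postnatal arrays alone, 22 after quantile normalization, 20 after centring, 37 with age in days and 0 to 7 without single arrays. Of 604 values of named genes 3 changed sign, all in ALAS2 (0.08 as reported): -0.02 with the floor, -0.17 without the 24-day array and -0.15 without the 353-day array, in a range of -0.17 to 0.32 without single arrays. 70 passed the threshold that they missed as reported. Of 532 list medians 15 moved by more than their spread. Except for the numbers of values and the weights, causes were not tested. No paired analysis was possible because the groups hold different animals. Signals under the 20th percentile limit ANLN, SLA, ST18, HAPLN1, C7, COL1A1, CHRNA6, SALL1, IFIT2, PRKCD, HES1 and SLC1A6, among others.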

Other observations

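Several genes outside the lists differed by at least 1 log2 unit without overlap in the values as deposited. They were chosen after their values were seen, and none passed the adjusted threshold. PTGES3, a co-chaperone that also makes prostaglandin E2, read 4.55, 4.35 and 5.40 in the younger and 6.61, 6.24 and 5.83 in the older arrays (1.46 ± 0.28; fetal mean 5.78). ANXA11, an annexin that binds calcium and phospholipid, read 3.31, 4.06 and 4.13 against 4.76, 5.28 and 5.41 (1.32 ± 0.25). Both had a limma adjusted p of 0.0976. ABCA8, a lipid transporter, read 1.45, 2.83 and 2.87 against 4.09, 4.16 and 3.08 (1.39 ± 0.35), with all 3 younger values under the 20th percentile. Its groups overlapped with the floor, at 3.12 for 24 days against 3.08 for 831 days. SELENOP, the selenium carrier, read 3.87, 4.58 and 4.76 against 5.45, 5.82 and 5.19 (1.08 ± 0.30), and GPR83, a G protein-coupled receptor, 3.10, 3.27 and 3.96 against 4.54, 5.17 and 4.32 (1.23 ± 0.31).

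Lower in the older group were GRP, gastrin-releasing peptide, with 6.36, 5.37 and 5.15 against 4.76, 4.13 and 1.80 (-2.06 ± 0.60), and SCGN, secretagogin, a calcium-binding protein of interneurons, with 4.31, 3.69 and 3.62 against 2.27, 3.20 and 2.08 (-1.36 ± 0.33). The GRP value at 831 days stood far under the other older values. SLC1A6, a neuronal glutamate transporter, read 4.0, 4.23 and 4.02 against 2.68, 3.51 and 2.23 (-1.28 ± 0.30). OSTN, osteocrin, a secreted factor of primate neurons, read 4.32, 3.14 and 3.07 against 1.77, 2.74 and 1.83 (-1.40 ± 0.62). SCGN and OSTN were below the 20th percentile on all 3 older arrays, SLC1A6 at 353 and 831 days and GRP at 831 days. The groups of OSTN overlapped with the floor, at 3.25 for 479 days against 3.07 for 182 days. The gap junction protein GJC1 read 5.76, 5.62 and 5.02 against 4.55, 4.72 and 3.82 (-1.10 ± 0.30), after a fetal mean of 7.24.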
